A study of Mus musculus with 12 samples.

Results

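The genes described here serve cholesterol synthesis under the transcription factor SREBP2. They are 8 of the 10655 genes with values and were chosen by symbol: Srebf2, which encodes the factor; Insig1, which encodes one of its inhibitors; and the synthesis enzymes Hmgcs1, Idi1, Fdps, Fdft1, Sqle and Cyp51. All 8 were present. None of them encodes an uptake receptor, so uptake is described from other genes. RNA of mouse aortic endothelial cells (MAECs in the labels) was sequenced by SMART-seq, a full-length RNA protocol, in 12 libraries. They form 4 groups of 3, named by a pair of diets: CD mothers with CD offspring (CD_CD), WD mothers with CD offspring (WD_CD), CD mothers with WD offspring (CD_WD) and WD on both sides (WD_WD). The first diet of a name was read as the mother's, after the order used in the series text. That text adds that the offspring on WD had been put back on WD for 4 weeks, and the series title names a high-fat diet of the mothers and atherosclerosis of the offspring. Genotype, strain, sex, age and any shared treatment were not given in the sources used here. Nothing says whether replicates came from separate animals, so p-values reflect only how far these samples spread, and that spread may be technical.

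SREBP2 is made as a membrane protein of the endoplasmic reticulum, bound to its escort Scap. When membrane sterol is low, Scap carries it to the Golgi, where the site proteases Mbtps1 and Mbtps2 release the active part, which turns on genes of the mevalonate pathway and Insig1. When sterol is high, the Insig proteins hold Scap back. In the arterial wall, cells that take up lipoprotein cholesterol are known to lower this programme and to raise the export genes under the sterol receptor LXR.

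The libraries held 4074413 to 19670570 reads in the listed genes, 10667657 or more in CD offspring and as few as 4074413 in WD_WD replicate 3. Values are normalised counts, that is reads divided by a size factor per library. The 15 endothelial marker genes, Pecam1 and Cdh5 among them, were present in all groups, but their summed level was 58370 to 96650 in CD offspring, 2287 to 36680 in CD_WD and 11410 to 19640 in WD_WD. The 12 macrophage markers summed to 10750 to 113600 in CD offspring, 40570 to 540200 in CD_WD and 558000 to 1028000 in WD_WD. The 5 neutrophil markers of 7 listed summed to 151.4 to 1147 with CD and to 13720 to 193000 with WD as the offspring's diet. B cell markers (4 of 5 listed) summed to 102.2 to 3391 in CD and 4210 to 335300 in WD offspring, and T and NK cell markers (7 of 10) to 201.5 to 2301 and 2338 to 64220. Smooth muscle markers (10 of 10) summed to 12870 to 87320 in CD and 1232 to 23930 in WD offspring. Fibroblast markers (9 of 10) summed to 29470 to 73180 in CD offspring, 2530 to 77970 in CD_WD and 6536 to 19990 in WD_WD. No marker of these lists was at 0 in all libraries of any group. CD_WD replicate 1 stood apart, with the lowest endothelial (2287), smooth muscle (1232) and fibroblast (2530) sums and the highest B cell (335300, at most 16690 in any other) and T and NK cell sums (64220, at most 19260 in any other), and WD_CD replicate 3 had the most genes without reads (463). In such bulk libraries, fewer cells of a type and less RNA per cell cannot be told apart.

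The stretches before the starts of 4 members are shown because SREBP2 is known to act on these genes through short motifs there. They are from RefSeq (build GRCm38.p6), whose table matched 5 of the 8 members, with Sqle, Fdps and Fdft1 unmatched. Each begins 250 bases upstream of the RefSeq start and stops before that start or before the start of the gene in the GENCODE annotation, whichever comes first. Capitals mark matches, on either strand, to the sterol response element in its loose form TCACNNCA or, where the match goes on, its longer form TCACNCCAC, and to the E-box CACGTG.
Hmgcs1, chr13:119690101-119690350, plus strand: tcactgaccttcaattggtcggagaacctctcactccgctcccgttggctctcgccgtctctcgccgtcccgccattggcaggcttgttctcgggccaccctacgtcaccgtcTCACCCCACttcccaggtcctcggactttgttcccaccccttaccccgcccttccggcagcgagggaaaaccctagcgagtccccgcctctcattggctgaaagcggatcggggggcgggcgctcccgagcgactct
Srebf2, chr15:82147019-82147180, plus strand: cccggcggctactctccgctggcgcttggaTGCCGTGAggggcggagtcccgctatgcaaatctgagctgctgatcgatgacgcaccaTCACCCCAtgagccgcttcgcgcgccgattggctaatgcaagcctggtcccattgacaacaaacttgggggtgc
Cyp51, chr5:4104747-4104947, minus strand: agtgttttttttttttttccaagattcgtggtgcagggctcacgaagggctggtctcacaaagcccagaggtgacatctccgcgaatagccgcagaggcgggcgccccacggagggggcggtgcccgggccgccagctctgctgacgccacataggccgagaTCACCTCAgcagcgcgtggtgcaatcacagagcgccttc
Insig1, chr5:28071162-28071362, plus strand: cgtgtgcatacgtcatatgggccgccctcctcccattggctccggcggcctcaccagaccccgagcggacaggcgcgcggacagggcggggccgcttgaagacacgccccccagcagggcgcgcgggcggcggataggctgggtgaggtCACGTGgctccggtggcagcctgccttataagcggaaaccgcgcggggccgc
The 9-base form TCACNCCAC occurred in Hmgcs1, 137 bases upstream of the start, and in 1.24% of the 32851 RefSeq windows of 300 bases. Srebf2 held the 8-base form TCACNCCA at 162 bases upstream, which overlaps the other forms and occurred in 4.36% of windows, and a loose match on the opposite strand at 220 bases. In Cyp51 only the loose form was found, at 88 bases, and 13.8% of windows hold it. Insig1 had no match to these 3 forms in the window and held an E-box at 101 bases (7.15% of windows). Idi1, not printed, had neither. CCAAT, the box of the partner factor NF-Y, was present in all 5 matched windows and in 37.4% of all windows. The 8-base and loose forms were searched after the sequences had been seen. These matches describe the letters only.

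The regulator genes come first. Srebf2 (chr15:82147181-82205379, plus strand, GRCm38) had 493, 479.8 and 553 normalised counts in the CD_CD libraries, 283, 418 and 554 in those of WD_CD, 1199, 341 and 507 in those of CD_WD and 480.3, 435 and 364 in those of WD_WD. CD_WD replicate 1, the library with the highest lymphocyte marker sums, was far above the rest, and the part of those cells was not tested. The other 11 libraries lay between 283 and 554 with all groups overlapping. Srebf2 had the smallest spread of the 8 within groups, an SD of 0.54 on the log2 scale. Insig1 (chr5:28071363-28078662, plus strand) had 403, 247 and 189 normalised counts in the CD_CD libraries, 231, 217 and 359 in those of WD_CD, 104, 87.9 and 103 in those of CD_WD and 77.1, 141 and 317 in those of WD_WD. All 6 libraries of CD offspring were at 189 or more, all 3 of CD_WD at 104 or less, and WD_WD spanned both ranges, with replicate 3 as high as the CD offspring.

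Of the mevalonate enzymes, Hmgcs1 (chr13:119690379-119708260, plus strand), which makes HMG-CoA, had 220.3, 101 and 132 normalised counts in the CD_CD libraries, 295, 106 and 34.8 in those of WD_CD, 81.1, 75.3 and 81.8 in those of CD_WD and 46.2, 105 and 75.2 in those of WD_WD. The WD_CD libraries alone covered the whole range of values, while those of CD_WD lay close together. Idi1 (chr13:8885501-8892451, plus strand), which isomerises isopentenyl pyrophosphate, had 21.5, 29.0 and 22.7 normalised counts in the CD_CD libraries, 37.8, 39.5 and 2.67 in those of WD_CD, 33.0, 8.37 and 28.4 in those of CD_WD and 43.7, 3.03 and 142 in those of WD_WD. It was the lowest member in counts, with 4 reads in WD_CD replicate 3, 4 in CD_WD replicate 2 and 2 in WD_WD replicate 2. WD_WD replicate 3, at 142.5, was the highest of the 12.

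Fdps (chr3:89093588-89101959, minus strand), which makes farnesyl pyrophosphate, had 208, 100.1 and 327 normalised counts in the CD_CD libraries, 384, 232 and 73.6 in those of WD_CD, 266, 429 and 468 in those of CD_WD and 293, 341 and 562 in those of WD_WD. Its 6 libraries of WD offspring were all at 266 or more, against 4 of 6 CD libraries below that level. Fdft1 (chr14:63145150-63179578, minus strand), the squalene synthase, had 382, 66.6 and 138 normalised counts in the CD_CD libraries, 172, 97.6 and 0 in those of WD_CD, 104, 184 and 46.5 in those of CD_WD and 123, 59.1 and 154 in those of WD_WD. WD_CD replicate 3 had 0 reads, which allows up to 2.01 normalised counts by a floor of 3 reads in that library, while its group mates stood at 97.6 and 172.

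Sqle (chr15:59315077-59331192, plus strand), the squalene epoxidase, had 0, 42.5 and 50.7 normalised counts in the CD_CD libraries, 26.7, 27.5 and 124 in those of WD_CD, 43.1, 58.6 and 30.1 in those of CD_WD and 61.6, 69.8 and 103 in those of WD_WD. CD_CD replicate 1 had 0 reads (floor 1.04 normalised counts), and the 3 WD_WD libraries were above the 3 CD_WD libraries. Cyp51 (chr5:4081145-4104746, minus strand), the lanosterol demethylase, had 146, 53.5 and 66.1 normalised counts in the CD_CD libraries, 0, 112 and 139 in those of WD_CD, 231, 92.1 and 133 in those of CD_WD and 92.5, 136 and 578 in those of WD_WD. WD_CD replicate 1 had 0 reads (floor 1.27) and WD_WD replicate 3 was the highest by far. Floors cover counting error only.

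**Figure D1:**
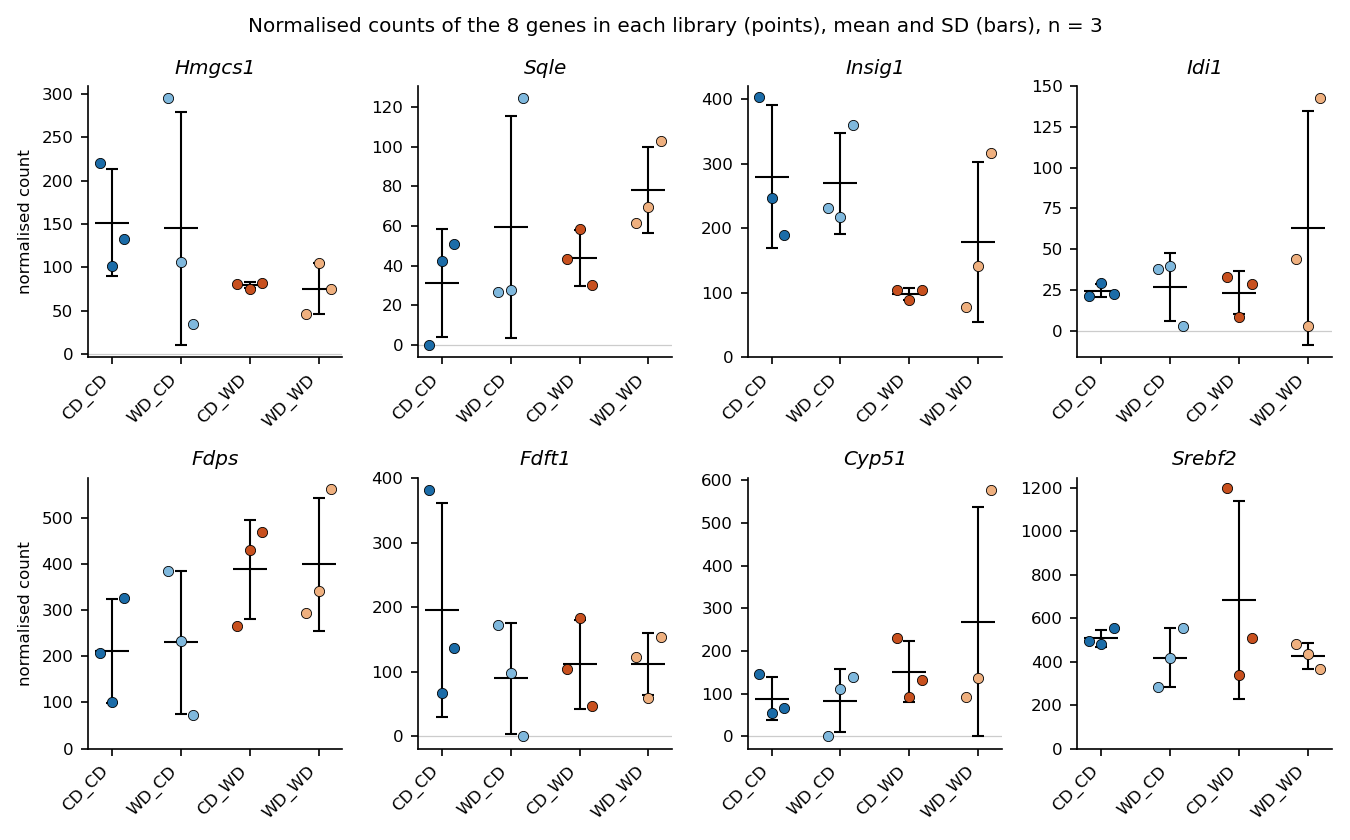
Normalised counts (vertical axis, its range set per gene) of the 8 genes in each library, with points for libraries and bars for the mean ± SD of 3. Insig1 in CD_WD sits at 87.9 to 104, below all 6 libraries of CD offspring, and WD_WD replicate 3 is the highest point for Idi1, Fdps and Cyp51.

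Per kilobase of exon, and averaged over the 12 libraries, Fdps (73.0), Srebf2 (70.9) and Insig1 (66.7) had the highest levels. Cyp51 (33.6), Fdft1 (30.1) and Hmgcs1 (24.6) followed, and Idi1 (9.80) and Sqle (9.59) were lowest. Neighbours within these 3 tiers differed by less than the spread between their libraries. The order of the group means differed between groups. Insig1 had the highest mean in CD_CD at 90.4 normalised counts per kilobase, against 70.8 for Srebf2 and 50.3 for Fdps. Its 3 libraries there spread widely (279.7 ± 110 normalised counts, SD), by more than its lead over Srebf2. In CD_WD Srebf2 stood at 95, Fdps at 92.2 and Insig1 at 31.8. The Srebf2 mean there rested on CD_WD replicate 1, with 1199 normalised counts against 341 and 507 in its group mates.

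The spread within groups sets what can be seen. On the log2 scale it was 0.61 for Insig1, 0.81 for Fdps, 0.86 for Hmgcs1, 1.73 for Idi1, 1.75 for Sqle, 2.19 for Cyp51 and 2.22 for Fdft1. The members' median of 1.29 compares with 0.81 over all genes. A library with at most 10 reads beside group mates that both had 50 or more normalised counts occurred in 2 of the 8 members (25%), Fdft1 and Cyp51, and in 1930 of the 10655 genes (18.1%). Members did not vary as a block: over the 28 pairs, the correlation of the deviations from group means across the 12 libraries had a median of -0.0567 and ranged from -0.617 (Hmgcs1 with Cyp51) to 0.795 (Hmgcs1 with Fdft1). Hmgcs1 with Fdps (0.756), Fdps with Fdft1 (0.762) and Idi1 with Fdft1 (0.58) were the other pairs above 0.5. These points share their libraries and depth, and single libraries with few reads weigh on them. In WD_CD replicate 3 Fdft1 had 0 reads and Idi1 4, and Hmgcs1 (34.8) and Fdps (73.6) had their lowest values. In WD_CD replicate 1 Cyp51 had 0 reads and Hmgcs1 its highest value (295). The correlations were not computed without these libraries. WD_CD replicate 3 was the lowest of the 12 libraries for 4 members and had the lowest mean log2 level of the 8 (5.62), and WD_WD replicate 3 had the highest (7.82).

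The offspring's diet was compared within each mother's diet. A gene was called where limma's Benjamini-Hochberg adjusted p over all 10655 genes was under 0.05, and fold changes are differences of log2(normalised count + 1). This scale shrinks differences between low values, while a library with 0 reads among higher ones widens them. With CD mothers, 0 of the 8 members passed, where 15.0% of all genes did. The member nearest the threshold was Insig1, with 279.7 ± 110 (SD, n = 3) in CD_CD and 98.4 ± 9.09 in CD_WD. That is a log2 fold change of -1.43 ± 0.56 (SE), or 2.70-fold lower, with a 95% interval of -2.64 to -0.23 and limma adjusted p = 0.103. By DESeq2 on the recovered reads, which called 22.4% of all genes, Insig1 passed (-1.51, adjusted p = 0.0359). By edgeR, which called 13.6%, it did not (-1.60, adjusted p = 0.0744).

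Insig1 and Hmgcs1 were the 2 members whose libraries did not overlap between CD_CD and CD_WD, both lower in CD_WD, as were 21.6% of all genes. Hmgcs1 averaged 151 ± 61.7 and 79.4 ± 3.55 (-0.85 ± 0.75 SE, limma adjusted p = 0.497). The log2 fold change was 1.73 for Sqle, 0.99 for Fdps, 0.81 for Cyp51, 0.22 for Srebf2, -0.26 for Idi1 and -0.65 for Fdft1. Thus 4 were above 0 and 4 below, and the median of the 8 was -0.02, as over all genes. Without CD_CD replicate 1, which had 0 reads of it, Sqle had -0.13.

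With WD mothers, 0 of the 8 passed, where 24.4% of all genes did. Cyp51 had the largest difference, with 83.7 ± 73.7 in WD_CD and 269 ± 269 in WD_WD (SD, n = 3). Its log2 fold change of 2.96 ± 1.51 (SE, limma adjusted p = 0.167) was 1.56 by edgeR and 0.63 without WD_CD replicate 1, the library with 0 reads. In the same way Fdft1 had 2.03, 0.19 by edgeR and -0.31 without WD_CD replicate 3. Fdps had 1.03, Sqle 0.74, Idi1 0.72, Srebf2 0.07, Hmgcs1 -0.52 and Insig1 -0.79 (95% interval -2.00 to 0.41, limma adjusted p = 0.31). The median of the 8 was 0.73, against 0.01 over all genes, and -0.00618 without WD_CD replicate 3.

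Averaged over the mothers' diets, in a contrast added after the data had been seen, 1 of the 8 members passed, where 37.8% of all genes did (17.6% lower, 20.1% higher). Insig1 fell: the 6 libraries of WD offspring had a log2 fold change of -1.11 ± 0.39 (SE), 2.16-fold lower than the 6 of CD offspring (95% interval -1.96 to -0.26, limma adjusted p = 0.0413), with WD_WD replicate 3 inside the CD range. The call held without CD_CD replicate 3 (limma adjusted p = 0.0453) or WD_WD replicate 3 (0.0114) and was lost without any 1 of the other 10 libraries (0.0533 to 0.104). Fdps differed by 1.01 ± 0.44 (SE) in the other direction and had limma adjusted p = 0.088, with near-equal values of 0.99 and 1.03 by mother. It passed without WD_CD replicate 1 (limma adjusted p = 0.038) and under no other setting. By edgeR it had 0.73 (adjusted p = 0.2) and by DESeq2 0.83 (adjusted p = 0.125). Intervals for Srebf2 (-0.53 to 0.83) and Hmgcs1 (-1.84 to 0.47) held 0, as did those of Sqle (-0.85 to 3.31), Cyp51 (-0.44 to 4.20), Idi1 (-1.98 to 2.44) and Fdft1 (-1.67 to 3.04).

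The marker sums moved with the offspring's diet, and their part in these values was not tested. Insig1 was 87.9 to 104 in the 3 CD_WD libraries, with endothelial sums of 2287 to 36680 and macrophage sums of 40570 to 540200. In the 3 WD_WD libraries it was 77.1 to 317, with endothelial sums of 11410 to 19640 and macrophage sums of 558000 to 1028000. No batch is named in the labels, so any batch that followed the offspring's diet cannot be told apart from it.

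**Figure D2:**
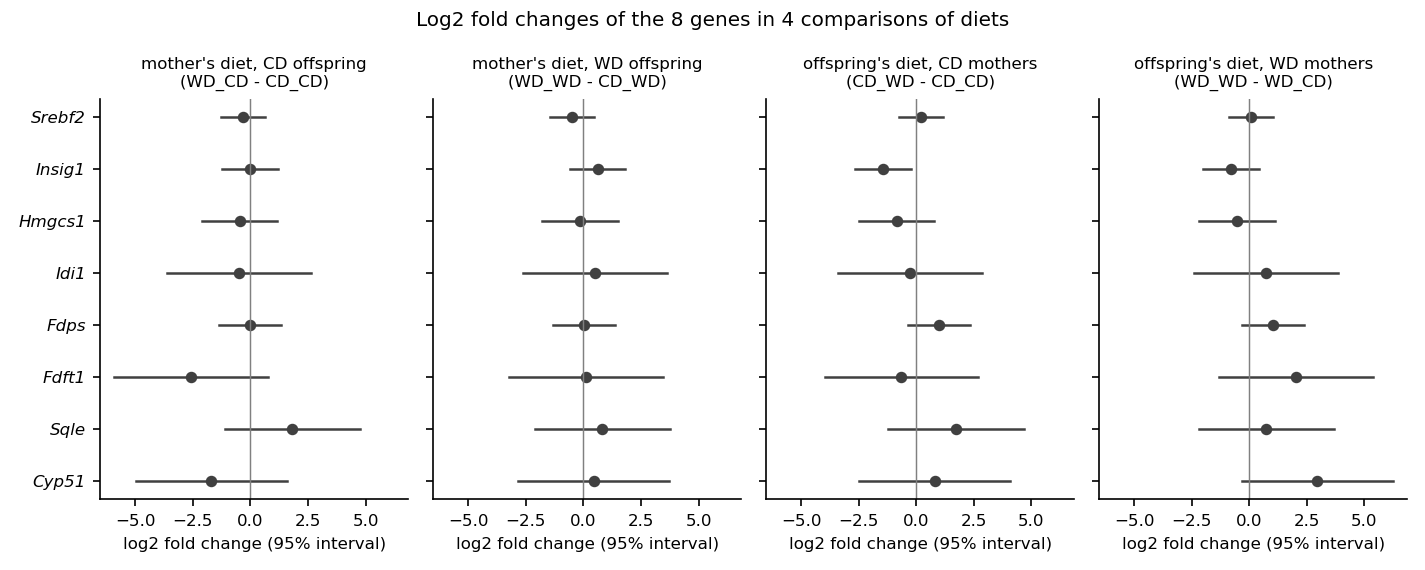
Log2 fold changes (points) with 95% intervals (lines) of the 8 genes in the 4 comparisons of diets. Of the 32 intervals only that of Insig1 for the offspring's diet with CD mothers, -2.64 to -0.23, leaves out 0, and none of the 32 passed after adjustment.

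The mother's diet was the study's main question. In CD offspring, 0 of the 8 members passed (0.0% of all genes; limma, with 276 genes, or 2.59%, and 0 members at an unadjusted p under 0.05). DESeq2 (0.0849% of all genes) and edgeR (0.0%) also called 0 members. Srebf2 averaged 509 ± 39.0 in CD_CD and 418 ± 135 in WD_CD (SD, n = 3; log2 -0.33 ± 0.44 SE, 95% interval -1.29 to 0.63), and Insig1 279.7 ± 110 and 269 ± 78.2 (-0.02 ± 0.56 SE, -1.23 to 1.18). Hmgcs1 had -0.47, Idi1 -0.49 and Fdps -0.02. The widest values came from genes with a library at 0 reads: Fdft1 at -2.57 was -0.23 without WD_CD replicate 3, Cyp51 at -1.70 was 0.63 without WD_CD replicate 1, and Sqle at 1.82 was -0.04 without CD_CD replicate 1.

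In WD offspring, 0 of the 8 passed (0.0% of all genes; limma, with 628 genes, or 5.89%, and 0 members at an unadjusted p under 0.05), and DESeq2 (0.132% of all genes) and edgeR (0.0%) again called 0 members. Sqle was the 1 member whose libraries did not overlap, higher in WD_WD (78.1 ± 21.9) than in CD_WD (43.9 ± 14.2; log2 0.83 ± 1.36 SE, limma adjusted p = 0.955), as were 5.86% of all genes. Insig1 had 0.62 (95% interval -0.59 to 1.82), which was 0.09 without WD_WD replicate 3, and Srebf2 -0.48 (-1.44 to 0.48), which was 0.03 without CD_WD replicate 1. Idi1 had 0.49, Cyp51 0.46, Fdft1 0.11, Fdps 0.02 and Hmgcs1 -0.15. Each of these comparisons of the mother's diet shares its groups with those of the offspring's diet.

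The test of whether the mother's diet acted differently in CD and WD offspring called 0 members (0.0% of all genes; limma, with 342 genes, or 3.21%, and 0 members at an unadjusted p under 0.05; the lowest adjusted p of a member was 0.997). For Insig1 that difference was 0.64 ± 0.79 (SE, 95% interval -1.06 to 2.34), and for Srebf2 -0.15 ± 0.63 (-1.51 to 1.21). Fold changes in either direction thus remain inside these intervals. In the authors' deposited table no member had an adjusted p below 0.701 (Insig1 in WD offspring, log2 0.84), and for Srebf2 it gave -0.283 in CD and -0.673 in WD offspring.

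Around the 8, the other enzymes of cholesterol synthesis were followed from a list of 13, of which 12 had values. With CD mothers 0 of 12 passed, where 15.0% of all genes did. With WD mothers 1 of 12 passed: Mvd, the mevalonate pyrophosphate decarboxylase, rose from 0, 0 and 29.4 to 339, 388 and 281 (log2 6.74 ± 1.64 SE, limma adjusted p = 0.0121; among all genes 14.2% were called higher). By edgeR it had 5.0 and did not pass (adjusted p = 0.0822). In CD_CD Mvd had 0, 54.4 and 86.0 and in CD_WD 175, 144 and 167, so that all 6 libraries of WD offspring were above all 6 of CD offspring. The share of all genes that separate 6 against 6 in this way is not given here, so how common it is cannot be read.

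Dhcr7, a reductase of the last steps of the pathway, did not pass with CD mothers (-0.25, limma adjusted p = 0.858) or with WD mothers (1.99, limma adjusted p = 0.0528). Averaged over the mothers, Mvd (5.0) and the isomerase Ebp (0.89) rose, 2 of 12, where 20.1% of all genes were called higher. By edgeR Mvd did not pass in that contrast (3.35, adjusted p = 0.0524). The Ebp call was lost with TMM or upper-quartile scaling, by edgeR and without any 1 of 6 libraries (limma adjusted p = 0.0735 to 0.0965), and held without CD_CD replicates 2 or 3, WD_CD replicates 1 or 3, CD_WD replicate 1 or WD_WD replicate 2. With CD and then with WD mothers, the remaining enzymes had log2 fold changes of 0.34 and -1.72 (Acat2), -1.14 and -0.03 (Mvk), 0.34 and 0.98 (Pmvk), -0.28 and 3.89 (Tm7sf2), and -0.87 and -0.73 (Lbr). Msmo1 had -0.28 and 0.96, Nsdhl 1.99 and 2.64, Hsd17b7 -1.05 and -1.65, Sc5d -0.64 and -0.45, and Ebp 0.66 and 1.11. None of these passed within a mother's diet.

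**Figure D3:**
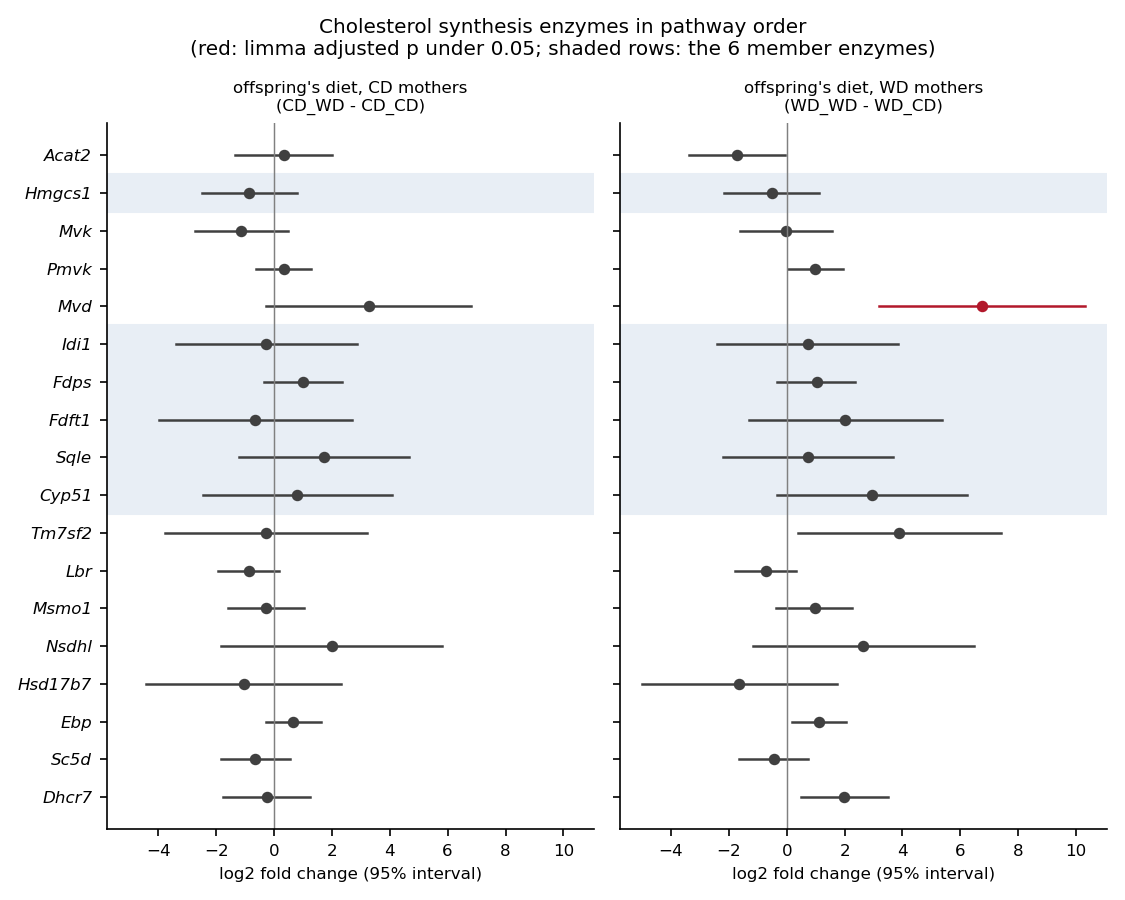
Log2 fold changes (horizontal axis) with 95% intervals for the synthesis enzymes reported here in pathway order, WD against CD offspring, with CD mothers (left) and WD mothers (right). Shading marks the 6 member enzymes, and red marks the 1 gene that passed, Mvd with WD mothers at 6.74.

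Genes that process SREBP or sense sterols had values for 10 of 10. With CD mothers 0 passed, where 15.0% of all genes did. With WD mothers 1 fell (10.2% of all genes were called lower) and 0 rose. Insig2, the second Insig protein, had 396, 629.6 and 278 in WD_CD and 46.2, 155 and 174 in WD_WD (-1.92 ± 0.55 SE, limma adjusted p = 0.0247). The Insig2 call was lost without WD_CD replicate 2 (limma adjusted p = 0.095), without WD_WD replicate 1 (0.0698) and with only the 6 libraries compared in the model (0.0686). Averaged over the mothers, Scap (-1.09) and Insig2 (-1.56) fell, 2 of 10, where 17.6% of all genes were called lower. The Scap call was lost without any library other than WD_CD, CD_WD or WD_WD replicate 1 (limma adjusted p = 0.0537 to 0.0797). Insig2 and the member Insig1 were thus both lower in WD offspring in that contrast, whereas Srebf2 had 0.15 and Srebf1, the related factor of fatty acid synthesis, 0.81 (limma adjusted p = 0.0517).

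Of 10 genes of cholesterol uptake and delivery 8 had values. Mylip, a ubiquitin ligase induced by LXR that limits lipoprotein uptake, fell in WD offspring of both kinds of mothers. It had 733, 768 and 709 in CD_CD and 223, 172 and 196 in CD_WD (-1.91 ± 0.43 SE, limma adjusted p = 0.0124), and 1005, 556 and 590.5 in WD_CD and 272, 136 and 444 in WD_WD (-1.44 ± 0.43, limma adjusted p = 0.0308). All 6 libraries of WD offspring were below all 6 of CD offspring, and again the share of all genes that separate in this way is not given here. The call was lost without CD_CD replicate 2 for CD mothers (0.053), and for WD mothers without any WD_CD library or WD_WD replicates 1 or 2 (0.052 to 0.1) and with only the 6 libraries compared in the model (0.0716).

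The lysosomal exporter Npc2 rose in both, from 2085 ± 369 to 5089 ± 1540 with CD mothers (1.26, limma adjusted p = 0.0306) and from 2613 ± 1020 to 10400 ± 1470 with WD mothers (2.05, limma adjusted p = 0.00195). With WD mothers its partner Npc1 (2.06, limma adjusted p = 0.0129) and the sterol-regulated membrane protein Tmem97 (2.09, 0.00806) rose as well. The Npc2 call with CD mothers was lost by edgeR (0.056), with only the 6 libraries compared in the model (0.0692), and without any CD_CD library or CD_WD replicates 2 or 3 (0.0537 to 0.127). With WD mothers the Npc1 call was lost without WD_CD replicate 2 (0.0546). In all, 2 of 8 passed with CD mothers (1 higher) and 4 of 8 with WD mothers (3 higher), where 15.0% and 24.4% of all genes did. Averaged over the mothers, 4 of 8 passed, where 37.8% of all genes did. Npc1 (1.44), Npc2 (1.65) and Tmem97 (1.46) were higher and Mylip (-1.67) was lower. In that contrast these calls held under the 7 other settings and with each library left out. No test compared this list with the members. Lipa, Lrp1, Scarb1 and Stard4 did not pass. The macrophage and neutrophil sums given above moved in the direction of these higher genes, and their part was not tested. For the mother's diet 0 genes of these lists passed, in CD or in WD offspring.

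**Figure D4:**
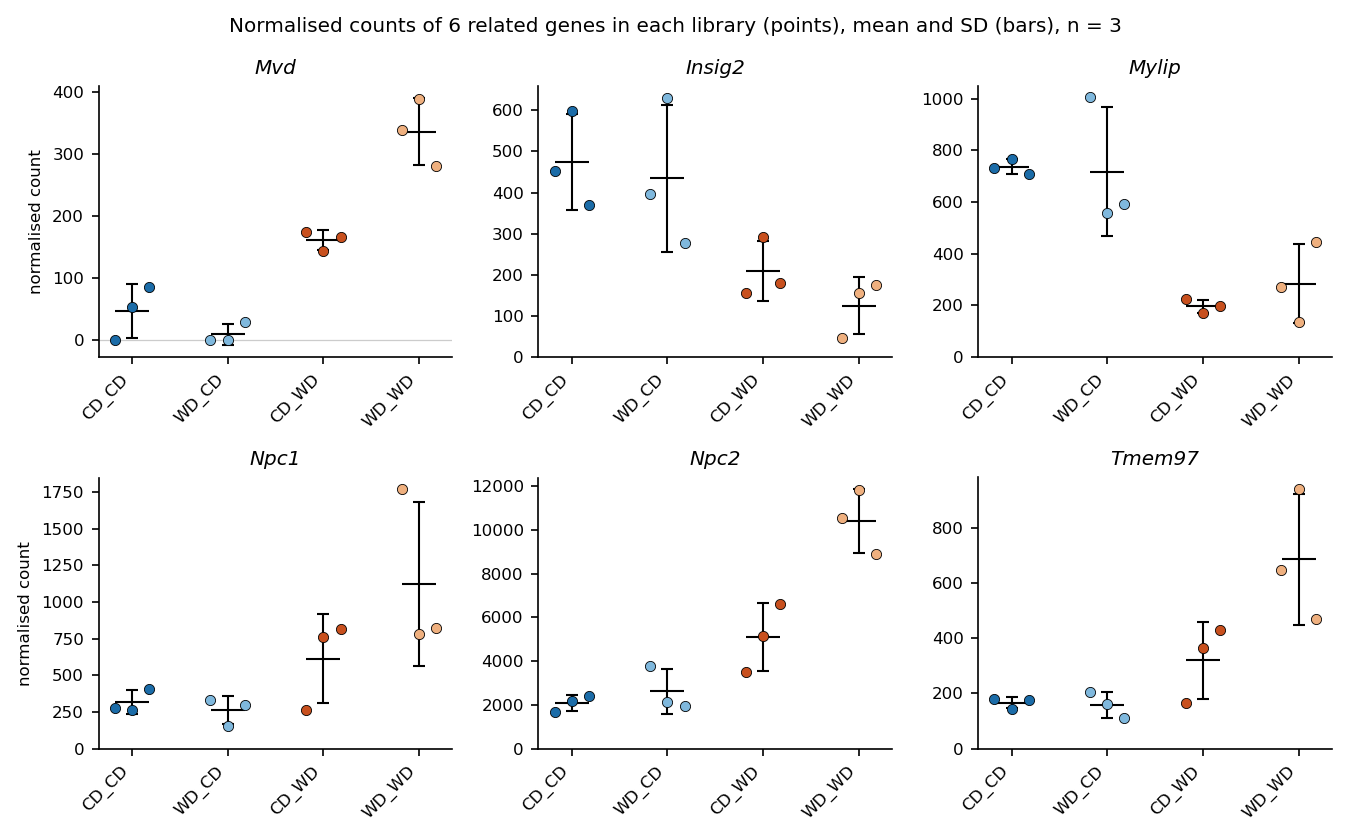
Normalised counts (vertical axis, its range set per gene) in each library, with mean ± SD of 3, of the 6 synthesis, processing and uptake genes reported here that passed within a mother's diet. Mylip in all 6 libraries of WD offspring (136.5 to 443.5) is below all 6 of CD offspring (556 to 1005), and Mvd is above them. The share of all genes that separate in this way is not given.

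Reads of some members may come from neighbours, since the handling of strand in the counting is not given in the sources used here. In the GENCODE vM21 annotation, 774 exon bases of Fdft1 (18.3%) lie opposite exons of Ctsb, a lysosomal protease gene whose group means were 11620 (CD_CD), 22390 (WD_CD), 99650 (CD_WD) and 252200 (WD_WD). Fdft1 was 0 to 382 in CD and 46.5 to 184 in WD offspring. Any reads gained from Ctsb or lost at the shared bases were not tested. For Cyp51, 166 exon bases (3.76%) lie opposite Akap9. Fdps shares 1124 exon bases (26.7%) with the gene model Gm43738 on its own strand, Hmgcs1 557 (12.1%) with the antisense Gm48342 and Idi1 323 (9.22%) with Gm48574, none of which had values. Insig1, Sqle and Srebf2 share no exon bases with another gene.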

How the data were processed

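RNA was extracted with Trizol, per the labels' protocols, and sequenced in 12 libraries. Per the submitters' processing notes, reads were mapped to GRCm38 (mm10) with tools that include HISAT2 2.2.1 and featureCounts 2.0.1, beside DESeq2, FastQC 0.12.1, SAMtools 1.13 and Trim Galore 0.6.10. Settings and the choice of genes were not given in the sources used here. Deposited by the authors was a normalised signal per gene and library, reads divided by a size factor: 100% of values were whole multiples of 1 read (tolerance 0.01). The spacing set the lowest value of CD_CD replicate 3 at 3 reads. The authors' deposited table also gives a log2 fold change, p-value and adjusted p-value per gene for the mother's diet.

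For counts, edgeR's quasi-likelihood test had been planned. Since the deposited values are no counts, the stated fallback was the test: limma 3.58.1 (R 4.3.3) with a mean-variance trend on log2(value + 1), no filter, all 12 libraries, 4 group means and 8 residual degrees of freedom, Benjamini-Hochberg adjusted over 10655 genes. There were 5 planned comparisons, and averages over the mothers' or offspring's diets were added after seeing the data. Alternatives were TMM and upper-quartile scaling, edgeR 4.0.16 and DESeq2 1.42.0 on the recovered reads, a pseudocount of 5, genes with a mean of at least 50, only the groups compared, a replicate block and each library left out. The scripts were tested on simulated data.

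All 8 members are described. For the other enzymes of cholesterol synthesis every gene of the list used is given. For the other lists, genes that passed in any comparison are named, up to 4 per list and comparison by smallest p, with Insig2, Scap and Srebf1. Some genes of these lists are not reported here and are left out of the list counts. The members and lists were chosen with earlier results of these data known. Depth limits low genes: 1 read was worth 0.347 normalised counts in CD_CD replicate 1 and 3.96 in WD_WD replicate 3. Replicates of a group differed by far more than sampling noise (chi-square per gene of 73.1 or more), and all were kept.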

Additional observations from a re-analysis of the deposited data

How the results depend on the processing

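With 3 libraries a group and reads as few as 0 for Sqle, Cyp51 and Fdft1 in single libraries, most members allow no direction to be read. No count of called members changed in the mother's comparisons or in the test of their difference (0 of 8 under every setting run). With CD mothers the offspring's diet gave 1 called member by DESeq2 (Insig1) in place of 0, and 0 under the others. In the averaged contrast the count was 0 in place of 1 with the replicate block, and 0 to 1 with single libraries left out: without WD_CD replicate 1 Fdps was called in place of Insig1. The cause was not tested.

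Signs turned under these settings. Idi1 for the mother's diet in CD offspring had 0.14 by edgeR and 0.13 by DESeq2, and Fdps 0.14 and 0.12. In WD offspring Fdps had -0.08 with upper-quartile scaling and Fdft1 -0.01 by edgeR. Srebf2 for the offspring's diet with WD mothers had -0.05 with TMM, -0.11 with upper-quartile scaling and -0.10 by edgeR, and averaged over mothers -0.01 with upper-quartile scaling. For the difference of the mother's effects Hmgcs1 had -0.05 by edgeR and -0.01 by DESeq2, and Fdps -0.01 with upper-quartile scaling, -0.13 by edgeR and -0.09 by DESeq2. Averaged over mothers Fdft1 had -0.36 by edgeR and -0.25 by DESeq2, and averaged over offspring Cyp51 had 0.37 by both. Idi1 and Fdps, near 0 in that last contrast, ran from -0.07 to 0.77 and from -0.08 to 0.08 under the settings that kept all libraries. Upper-quartile scaling moved the median of all genes to -0.171 for the offspring's diet with WD mothers (0.00658 before) and -0.145 with CD mothers. With it the genes called with WD mothers were 1293 higher and 1355 lower, against 1516 and 1088.

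With single libraries left out, the values whose sign turned spanned these log2 ranges. For the mother's diet in CD offspring, Hmgcs1 from -1.22 to 0.30, Sqle from -0.04 to 2.81, Insig1 from -0.27 to 0.28, Idi1 from -1.08 to 0.65, Fdps from -0.53 to 0.65 and Cyp51 from -2.94 to 0.63. For the mother's diet in WD offspring, Hmgcs1 from -0.42 to 0.16, Idi1 from -0.65 to 1.93, Fdps from -0.25 to 0.22, Fdft1 from -0.41 to 0.57, Cyp51 from -0.33 to 0.99 and Srebf2 from -0.88 to 0.03. For the offspring's diet with CD mothers, Sqle from -0.13 to 2.72, Idi1 from -0.60 to 0.33, Fdft1 from -1.24 to 0.01 and Srebf2 from -0.29 to 0.62. For the offspring's diet with WD mothers, Hmgcs1 from -1.30 to 0.23, Idi1 from -0.42 to 2.16, Fdft1 from -0.31 to 3.40 and Srebf2 from -0.18 to 0.30. For the interaction of both diets, Hmgcs1 from -0.45 to 1.07, Sqle from -1.98 to 0.87, Idi1 from -0.16 to 2.42, Fdps from -0.63 to 0.56, Cyp51 from -0.17 to 3.39 and Srebf2 from -0.55 to 0.36. For the offspring's diet averaged over mothers, Idi1 from -0.34 to 0.95, Fdft1 from -0.48 to 1.38 and Srebf2 from -0.11 to 0.34. For the mother's diet averaged over offspring, Hmgcs1 from -0.69 to 0.08 and Cyp51 from -1.24 to 0.54. There Idi1 and Fdps, near 0 with all libraries, ran from -0.57 to 0.72 and from -0.25 to 0.34.

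No pairing of the samples by replicate number was seen in the correlations of deviations. They ran from -0.232 to 0.074 for the 18 same-number pairs and from -0.21 to 0.244 for the 36 other pairs. With 3 libraries a group these values cannot exclude a pairing. With the replicate number as a block, limma adjusted p was 0.0582 for Insig1 and 0.0529 for Scap averaged over mothers, 0.0537 for Pggt1b with WD mothers, and 0.0532 for Npc2 with CD mothers, all called without it. The block changed no other call named.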

Other observations

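Lists beside the synthesis pathway were also counted. Of 14 measured SREBP1 genes of fatty acid synthesis, the desaturase Scd2 fell with CD mothers (1130 ± 234 to 329.9 ± 92.2, SD, n = 3; log2 -1.78, limma adjusted p = 0.00688). With WD mothers Acly, which makes cytosolic acetyl-CoA for both pathways, fell (691 ± 68.1 to 212 ± 32.6; -1.71, limma adjusted p = 0.00261), and the acetoacetyl-CoA synthetase Aacs rose (2.5, 0.029). Thus 1 of 14 passed with CD mothers and 2 of 14 with WD mothers, where 15.0% and 24.4% of all genes did. The Scd2 and Acly calls held with each library left out, and that of Aacs was lost without WD_CD replicates 1 or 3 or WD_WD replicates 1 or 3 (0.0556 to 0.0791), by edgeR (0.0743) and with only the 6 libraries compared in the model (0.123). Averaged over the mothers, 5 of 14 passed, 4 lower and 1 higher (17.6% and 20.1% of all genes): Acly (-1.18), Scd2 (-1.31), the desaturase Fads1 (-2.07, limma adjusted p = 0.0237) and the malic enzyme Me1 (-1.52, 0.0377) fell, and Aacs (1.67) rose. There the Fads1 call was lost without CD_CD, WD_CD or WD_WD replicate 2 or WD_CD replicate 3 (0.0546 to 0.0566), and that of Aacs without CD_CD replicate 1 (0.0608) or CD_WD replicate 2 (0.0635) and by edgeR (0.0624). That of Me1 was lost without CD_CD replicates 1, 2 or 3, WD_CD replicates 2 or 3, CD_WD replicates 1 or 3 or WD_WD replicates 2 or 3 (0.0522 to 0.0969). Of 8 measured LXR, efflux and esterification genes, the esterifying enzyme Soat1 (232 ± 26.2 to 1160 ± 429; 2.24, limma adjusted p = 0.0123) and the exporter Abcg1 (1.74, 0.0275) rose with WD mothers. Nr1h2, which encodes LXR beta, fell (-1.83, 0.0238). Thus 3 of these 8 passed with WD mothers, where 24.4% of all genes did, and 0 with CD mothers, where 15.0% did. With WD mothers Abcg1 lost its call without WD_CD replicates 2 (0.11) or 3 (0.0705), without WD_WD replicate 2 (0.104) and by edgeR (0.0761), and Nr1h2 without WD_CD replicates 1 (0.059) or 2 (0.0686). Averaged over the mothers, 3 of 8 passed, where 37.8% of all genes did. Soat1 (1.81) and Abcg1 (1.59) were higher and Nr1h2 (-1.37) was lower. In that contrast these calls held under the 7 other settings and with each library left out. Of 9 measured isoprenoid genes, Pggt1b, a subunit of the enzyme that adds geranylgeranyl groups to proteins, fell with WD mothers (133 ± 85.5 to 26.0 ± 12.5; -2.22, limma adjusted p = 0.0364; kept with a library left out only without CD_CD replicates 1 or 3, WD_CD replicate 2, CD_WD replicate 1 or WD_WD replicate 3, and 0.0535 to 0.12 for the other 7, and lost with only the 6 libraries compared in the model, 0.173). It was the 1 of 9 that passed with WD mothers, beside the same 24.4% of all genes. The macrophage, neutrophil and endothelial marker sums moved with the offspring's diet, and their part was not tested.

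Among 9940 other genes with a mean of at least 50, those whose deviations from the group means across the 12 libraries were most like the mean of the 8 members were Slc35d1 (r = 0.94), Bod1l (0.933), Cks1b (0.927), Zmym5 (0.917) and Acbd5 (0.917). These are the highest r of the 9940, so they were large by selection. The mean is also no profile that all members shared. The r of a member with the mean of the others ran from -0.486 (Sqle) to 0.516 (Idi1), with Srebf2 at -0.295, Cyp51 at -0.224 and Insig1 at 0.0641. All genes named here share libraries and depth with the members. Slc35d1 and Cks1b, like Idi1, Fdps and Cyp51, had their highest value in WD_WD replicate 3, the library with fewest reads, at 740 and 673 normalised counts.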
